A study of Mus musculus with 16 samples.

Results

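The genes described are those of the mitochondrial respiratory chain and of ATP synthase, measured by RNA sequencing of mouse germline stem cells of the male (GSCs) in culture, cells that can restart sperm production once placed in a testis. They were taken by name as every row whose symbol starts with Ndufa, Ndufb, Ndufc, Ndufs, Ndufv, Uqcr, Cox4, Cox5, Cox6, Cox7, Cox8 or Atp5, which gave 80 of the 27128 rows in each table. Of these, 37 belong to complex I, 7 to complex III, 19 to complex IV and 16 to complex V (ATP synthase). The remaining row, Cox4nb, is a neighbour of Cox4i1 in the genome and codes for no subunit. The rows of complex I include 2 assembly factors, Ndufaf1 and Ndufa12l, and Ndufa4 with its relative Ndufa4l2 is counted with complex IV, to which it is now assigned. The tables use older symbols, such as Uqcr for Uqcr11 and Atp5f1 for Atp5pb. A mean of at least 1 CPM (a count scaled to library size) over the 12 RNA libraries was reached by 76 of the 80 rows and by 14301 of all rows. The 4 rows that did not reach it were Cox4i2, Cox6a2, Cox8b and Ndufa4l2.

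Complexes I to IV pass electrons from NADH and succinate to oxygen, complexes I, III and IV pump protons out of the mitochondrial matrix as they do so, and complex V lets protons flow back to make ATP. Most of their subunits are encoded in the nucleus, translated in the cytosol and imported, so each complex needs many nuclear transcripts at once, together with a few products of mitochondrial DNA that these prefixes do not cover. The nuclear factors NRF1 and GABP (NRF2, an ETS factor) and YY1 are known regulators of many of these genes. A few subunits of complex IV also have forms known from testis, muscle or lung.

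All cells came from the mouse line B6;CBA-Tg(Pou5f1-EGFP)2Mnn/J, in which the Pou5f1 (Oct4) promoter drives GFP. GFP-positive germ cells without KIT were sorted at postnatal day 5.5 and grown in StemPro-34 medium with GDNF, bFGF and EGF. The feeder-removal series had cells on mouse embryonic fibroblast (MEF) feeders (day 0) and cells 4 and 9 days after their transfer to Matrigel, a basement membrane extract. The density experiment set epithelial-like cells, grown on Matrigel at 0.1 µg/cm2, beside mesenchymal-like cells, grown on it at 10 µg/cm2. Cells from the higher density were also sorted by GFP into low, mid and high fractions (GFP-low, GFP-mid, GFP-high). In the inhibitor series, feeder cultures received the solvent DMSO or UNC0638, an inhibitor of the histone methyltransferase G9a, at 0.5, 1 or 2 µM for 48 hours.

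Each group had 1 RNA library, which leaves every difference without replicates, and no p-values are given. The call used is a 2-fold ratio or more, and intervals are 95% counting intervals of the read split between 2 libraries. Reads amplified from small inputs are not independent molecules, so these intervals cover counting error only. Library totals were 4335210 to 12019672 counts, of which the 80 rows took 59471 to 195380. The 12 germ cell markers examined, Ddx4 and Dazl among them, had counts in every library, with a summed level of 2173 to 4134 TPM (a level scaled to transcript length and library size). Markers of fibroblasts summed to 134, 137 and 169 TPM at days 0, 4 and 9. In the epithelial-like culture and its mesenchymal-like counterpart they summed to 124 and 4571 TPM, respectively. Myeloid markers summed to 404, 307 and 52.5 TPM from GFP-low through GFP-mid to GFP-high and to at most 23.03 TPM elsewhere, and Sertoli markers to 6.14 to 47.0 TPM.

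Respiratory chain transcripts were abundant and short. Their median level was 322 TPM against 15.4 TPM for all genes that passed the filter, and together the 80 rows held 3.21% of a library's TPM in the mesenchymal-like culture and 4.08% at day 0, the lowest and highest of the 12. The median transcript length was 655 bases against 2563 bases, and 51 of the 80 rows (63.75%) were under 800 bases against 5.77% of all genes that passed. Complex I held 1.00% to 1.46% of the TPM of a library, complex III 0.242% to 0.345%, complex IV 1.10% to 1.31% and complex V 0.831% to 0.978%. The highest library was 1.46 times the lowest for complex I and 1.18 times for complex V.

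**Figure D1:**
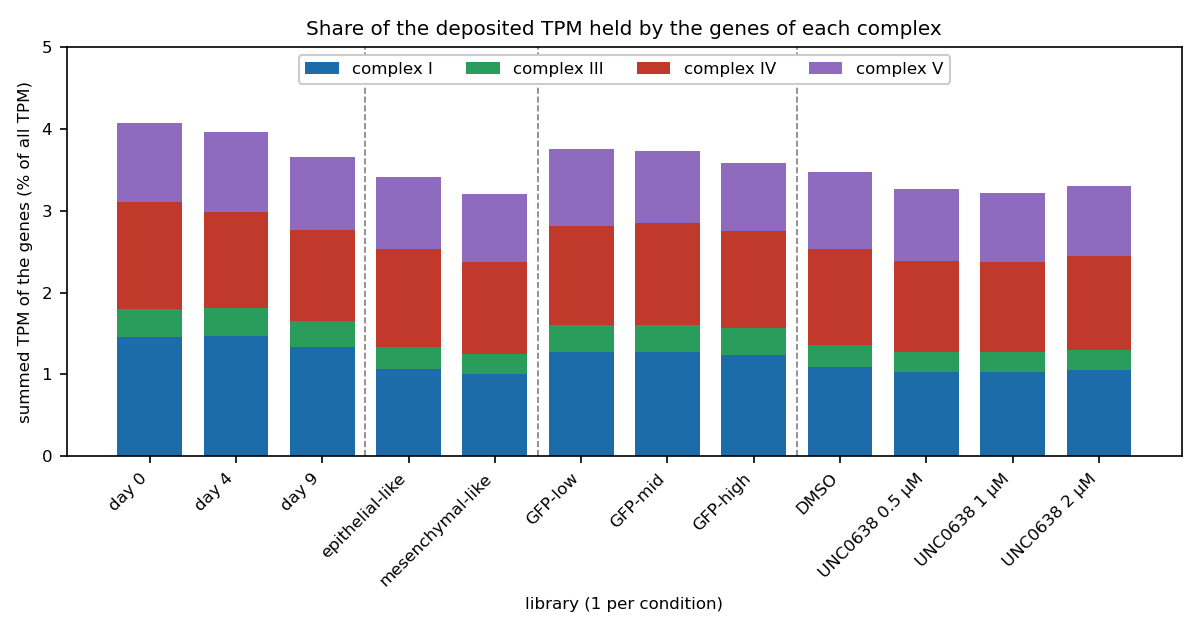
Stacked bars give the share of the deposited TPM (vertical axis, %) held by the genes of complexes I, III, IV and V in each of the 12 libraries, with dashed lines between the 4 experiments. The stack is tallest at day 0 and lowest in the mesenchymal-like culture, and complex I (the lowest segment) varies most, from 1.00% to 1.46%.

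Levels differed widely between the subunits of a complex. In complex I the highest mean level was that of the accessory subunit Ndufb9, at 947 to 1999 TPM over the 12 libraries. The 7 core subunits, among them those that carry the flavin and the iron-sulfur clusters, had a median of 275 TPM, near the 279 TPM of the 28 accessory subunits. Among the core subunits the level ran from 135 TPM for Ndufs1 to 518 TPM for Ndufv1, the NADH-binding subunit. The assembly factor Ndufaf1 was lower, at 72.1 TPM.

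In complex III the small subunit Uqcrb was highest, at 437 to 908 TPM, close to Uqcr (499 to 847 TPM) and to the hinge protein Uqcrh (529 to 756 TPM); the 3 ranges overlapped. The Rieske iron-sulfur protein Uqcrfs1 had 155 to 241 TPM. In complex IV, cytochrome c oxidase, Cox4i1 was the highest member of all 80, at 2625 to 3368 TPM, and the 11 ubiquitous subunits had a median of 897 TPM. Cox7b, also ubiquitous, had a mean of only 94.0 TPM.

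In complex V the catalytic beta subunit Atp5b was highest, at 1485 to 2136 TPM, above its alpha partner Atp5a1 at 673 to 939 TPM. These ranges did not overlap, although the enzyme holds both subunits in equal number. The F1 head had a median of 801 TPM over 5 genes, the stalk and membrane part 479 TPM over 7, and the 3 genes of the c ring 391 TPM. Atp5s, coupling factor B, lay far lower, at 4.59 to 10.6 TPM.

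Tissue-restricted isoforms were a small part of each pair. The testis form Cox8c had 84, 97 and 81 counts at days 0, 4 and 9. The density experiment gave 56 and 28 counts, epithelial-like first. It had 54, 89 and 51 in GFP-low, GFP-mid and GFP-high, and 32, 28, 44 and 23 with DMSO and with 0.5, 1 and 2 µM UNC0638. That was 1.55% to 3.75% of the summed TPM of Cox8c and its ubiquitous partner Cox8a. The share was highest at day 0 and lowest at 2 µM UNC0638.

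The other testis form, Cox6b2, had 19, 26 and 32 counts in the feeder-removal series, 7 and 31 in the density experiment, 15, 25 and 19 in the sorted series and 19, 22, 19 and 14 in the inhibitor series, in the same order. Its share of the pair with Cox6b1 was 0.704% to 2.62%, lowest in the epithelial-like and highest in the mesenchymal-like culture. The heart and muscle form Cox7a1 had 29, 59 and 50, 19 and 5, 19, 38 and 31, and 4, 12, 10 and 7 counts in the 4 experiments, with shares of 1.12% to 6.66% of the pair with Cox7a2. Its DMSO library, with 4 counts, was the lowest of the 12.

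The rest of the restricted forms had few reads or none, with 3 counts (0.238 to 0.725 CPM) taken as the limit of detection. The lung form Cox4i2 had 7, 15, 7, 3, 2, 0, 2, 7, 0, 4, 8 and 1 counts in the 12 libraries in that order, and at most 0.123% of the pair with Cox4i1. The muscle form Cox6a2 had 7, 3, 3, 3, 0, 1, 1, 0, 0, 4, 6 and 6, at most 0.379% of the pair with Cox6a1. Ndufa4l2, known as a hypoxia-induced gene, had 0, 3, 0, 1, 6, 3, 1, 2, 6, 3, 2 and 0, at most 0.614% of the pair with Ndufa4. The muscle form Cox8b had 0 counts in each of the 12 libraries, which allows a level of up to 0.238 CPM in the GFP-mid library, the deepest, and 0.725 CPM in the mesenchymal-like library, where the limit was highest. These sums cannot tell a low level in many cells from a high level in few, and in bulk RNA fewer cells of a type and less RNA per cell cannot be told apart.

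Subunit c, the proton-carrying ring of ATP synthase, is made from 3 genes, Atp5g1, Atp5g2 and Atp5g3, that code for the same mature protein with different import sequences. Their balance differed between experiments. Atp5g2 held 27.7, 29.5 and 24.9% of the TPM of the 3 genes at days 0, 4 and 9, and 49.98 and 55.2% in the density experiment, epithelial-like first. The share was 38.1, 46.3 and 39.2% in GFP-low, GFP-mid and GFP-high and 50.7, 50.6, 49.8 and 54.8% with DMSO and 0.5, 1 and 2 µM UNC0638. The 3 libraries of the feeder-removal series were thus the 3 lowest of 12. Atp5g1 went the other way, with 9.23, 7.77 and 8.56% in the feeder-removal series and 3.29% to 6.02% in the other 9 libraries. Atp5g3 held 40.8% to 66.6% over the 12. These shares divide reads by the listed transcript length, 4675 bases for Atp5g1 against 647 for Atp5g2 and 679 for Atp5g3. The length listed for Atp5g1 exceeds its RefSeq span, chr11:96072793-96075694, so its share may be understated. By reads Atp5g1 was not minor: at day 0 Atp5g1, Atp5g2 and Atp5g3 had 213, 70.1 and 170 CPM. Atp5g1 and Atp5g2 had expected counts that were not whole in all 12 libraries, the sign of reads shared with similar sequences, so the split between them is uncertain.

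**Figure D2:**
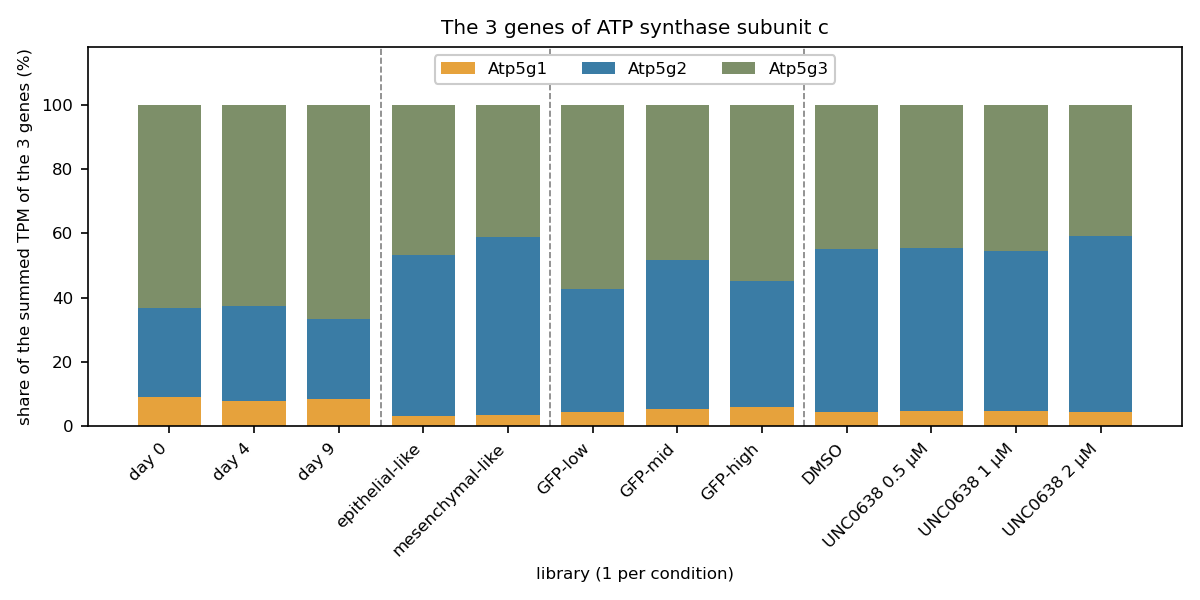
Stacked bars give the share of the summed TPM (vertical axis, %) of the 3 subunit c genes in each of the 12 libraries. Atp5g2 takes 24.9% to 29.5% in the 3 feeder-removal libraries (left of the first dashed line) and 38.1% to 55.2% in the other 9. Shares depend on the listed transcript lengths, which give Atp5g1 4675 bases.

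The start regions of the 3 genes are shown because the genes differed while the ring they build is the same. Each line gives the 250 bases before a transcription start annotated by RefSeq on GRCm38.p6 (mm10), read along the gene. Capitals mark a match to a motif that was searched. The Atp5g3 window lies inside the gene's RefSeq span (chr2:73908447-73912464), and the Atp5g1 window overlaps that of its own gene (chr11:96072793-96075694). The match in Atp5g2 is the NRF1 core TGCGCATG on the opposite strand, and those in Atp5g1 and Atp5g3 are the E-box CACGTG. A match is a description of the letters and not a measured binding site.
Atp5g1, chr11:96075632-96075881, minus strand: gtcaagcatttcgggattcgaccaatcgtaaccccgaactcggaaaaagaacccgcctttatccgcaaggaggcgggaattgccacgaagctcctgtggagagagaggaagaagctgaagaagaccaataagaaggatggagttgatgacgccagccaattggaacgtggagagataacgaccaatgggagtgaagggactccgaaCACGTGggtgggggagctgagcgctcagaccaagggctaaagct
Atp5g2, chr15:102671048-102671297, minus strand: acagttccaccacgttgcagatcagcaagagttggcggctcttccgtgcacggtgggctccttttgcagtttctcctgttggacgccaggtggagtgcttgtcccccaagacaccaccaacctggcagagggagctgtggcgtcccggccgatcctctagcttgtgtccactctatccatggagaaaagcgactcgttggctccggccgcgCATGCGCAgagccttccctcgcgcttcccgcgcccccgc
Atp5g3, chr2:73911327-73911576, minus strand: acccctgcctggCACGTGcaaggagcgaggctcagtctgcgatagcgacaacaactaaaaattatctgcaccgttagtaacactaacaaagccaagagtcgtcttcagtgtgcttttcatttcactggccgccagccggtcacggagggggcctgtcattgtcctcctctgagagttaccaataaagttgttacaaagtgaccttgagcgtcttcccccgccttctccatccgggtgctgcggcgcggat

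All 80 rows matched a RefSeq gene of that build, 65 of them with 70 start windows of 300 bases (250 before the start and 50 after it). The NRF1 letters TGCGCATG, sought on both strands like the other motifs, were in 8 of the 70 windows (11.4%), against 2.12% of 32851 windows of all genes and 3.88% of the 12581 windows of genes that passed the filter. Those of YY1, AAGATGGC, were in 10 (14.3%, against 2.75% and 4.17%). The ETS letters CCGGAAG were in 15 (21.4%, against 8.86% and 16.7%), and the CRE letters TGACGTCA in 4 (5.71%, against 1.79% and 2.98%). The TATA letters TATAAA were in 7 (10.00%, against 13.6% and 7.26%) and the E-box, a palindrome, in 7 (10.00%, against 7.15% and 10.2%). Among the 6 motifs, the ratio of the share here to that of the genes that passed was highest for the YY1 and NRF1 letters. The windows of these genes had a median GC content of 57.3% against 52.7% for all windows. Unlike the motif shares, GC content was not computed for the windows of genes that passed the filter.

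The 8 NRF1 matches came from complexes I, III, IV and V. They are printed with the bases around them to show that each gene has its own surroundings, and the 8 capitals read TGCGCATG or its reverse complement along the gene. In Uqcrc1 the letters run on into a second, overlapping copy on the opposite strand and the first is in capitals.
Atp5g2, chr15:102671068-102671097, minus strand: ctccggccgcgCATGCGCAgagccttccct
Atp5l, chr9:44920963-44920992, minus strand: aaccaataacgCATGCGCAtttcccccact
Cox5b, chr1:36691424-36691453, plus strand: agaggcagaacTGCGCATGtgcggcgtcta
Ndufa6, chr15:82354355-82354384, minus strand: ccgcggtagagCATGCGCAttgcagagccc
Ndufa8, chr2:36049327-36049356, minus strand: cgctggagacgCATGCGCAgatggtaccgg
Ndufb6, chr4:40279481-40279510, minus strand: agagagggcttTGCGCATGagcagagcctg
Ndufb8, chr19:44555419-44555448, minus strand: tgacccgctttTGCGCATGtgcagagtgaa
Uqcrc1, chr9:108936666-108936695, plus strand: agactccgctcTGCGCATGcgcagcgcggc

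The YY1 letters had a similar place and the same direction in most of their windows. In 8 of the 10 windows they read AAGATGGC along the gene within the 50 bases after the start, at positions 23 to 39 counted from the start site. Among all windows 0.865% have them so placed, and among windows of genes that passed the filter 1.88%, against 11.4% here. Of the 8 genes, 7 belong to complex I, and Atp5j2 codes for subunit f of complex V. The 30 bases around each match are printed because the letters hold an ATG; whether that ATG starts the protein was not examined.
Atp5j2, chr5:145191500-145191529, minus strand: accaggacttcAAGATGGCgtcactcggtg
Ndufa3, chr7:3617384-3617413, plus strand: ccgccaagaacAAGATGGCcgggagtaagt
Ndufa9, chr6:126849097-126849126, minus strand: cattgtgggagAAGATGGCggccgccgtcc
Ndufb8, chr19:44555393-44555422, minus strand: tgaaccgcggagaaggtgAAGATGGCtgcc
Ndufc1, chr3:51408915-51408944, minus strand: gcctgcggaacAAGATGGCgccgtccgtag
Ndufs4, chr13:114388045-114388074, minus strand: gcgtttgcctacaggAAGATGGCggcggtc
Ndufs6, chr13:73328433-73328462, minus strand: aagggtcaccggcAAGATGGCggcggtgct
Ndufs7, chr10:80249462-80249491, plus strand: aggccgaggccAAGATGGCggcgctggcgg

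Over the 12 libraries the respiratory chain genes varied less than most genes. The median log2 range of CPM + 1 was 0.74 over the 76 genes that passed, against 1.29 over all 14301. A range under 1, or 2-fold, held for 60 of 76 genes (78.9%) and for 32.2% of all genes. The 75 mitochondrial ribosomal protein genes had a median range of 0.72 and the 39 proteasome genes 0.85. By complex the medians were 0.73 for I, 0.70 for III, 0.82 for IV and 0.70 for V. Atp5g2 had the widest range of all, 1.97. Atp5k, subunit e of ATP synthase, followed with 1.77, but at 133 to 359.5 TPM on the shortest transcript, of 292 bases, among the genes that passed.

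**Figure D3:**
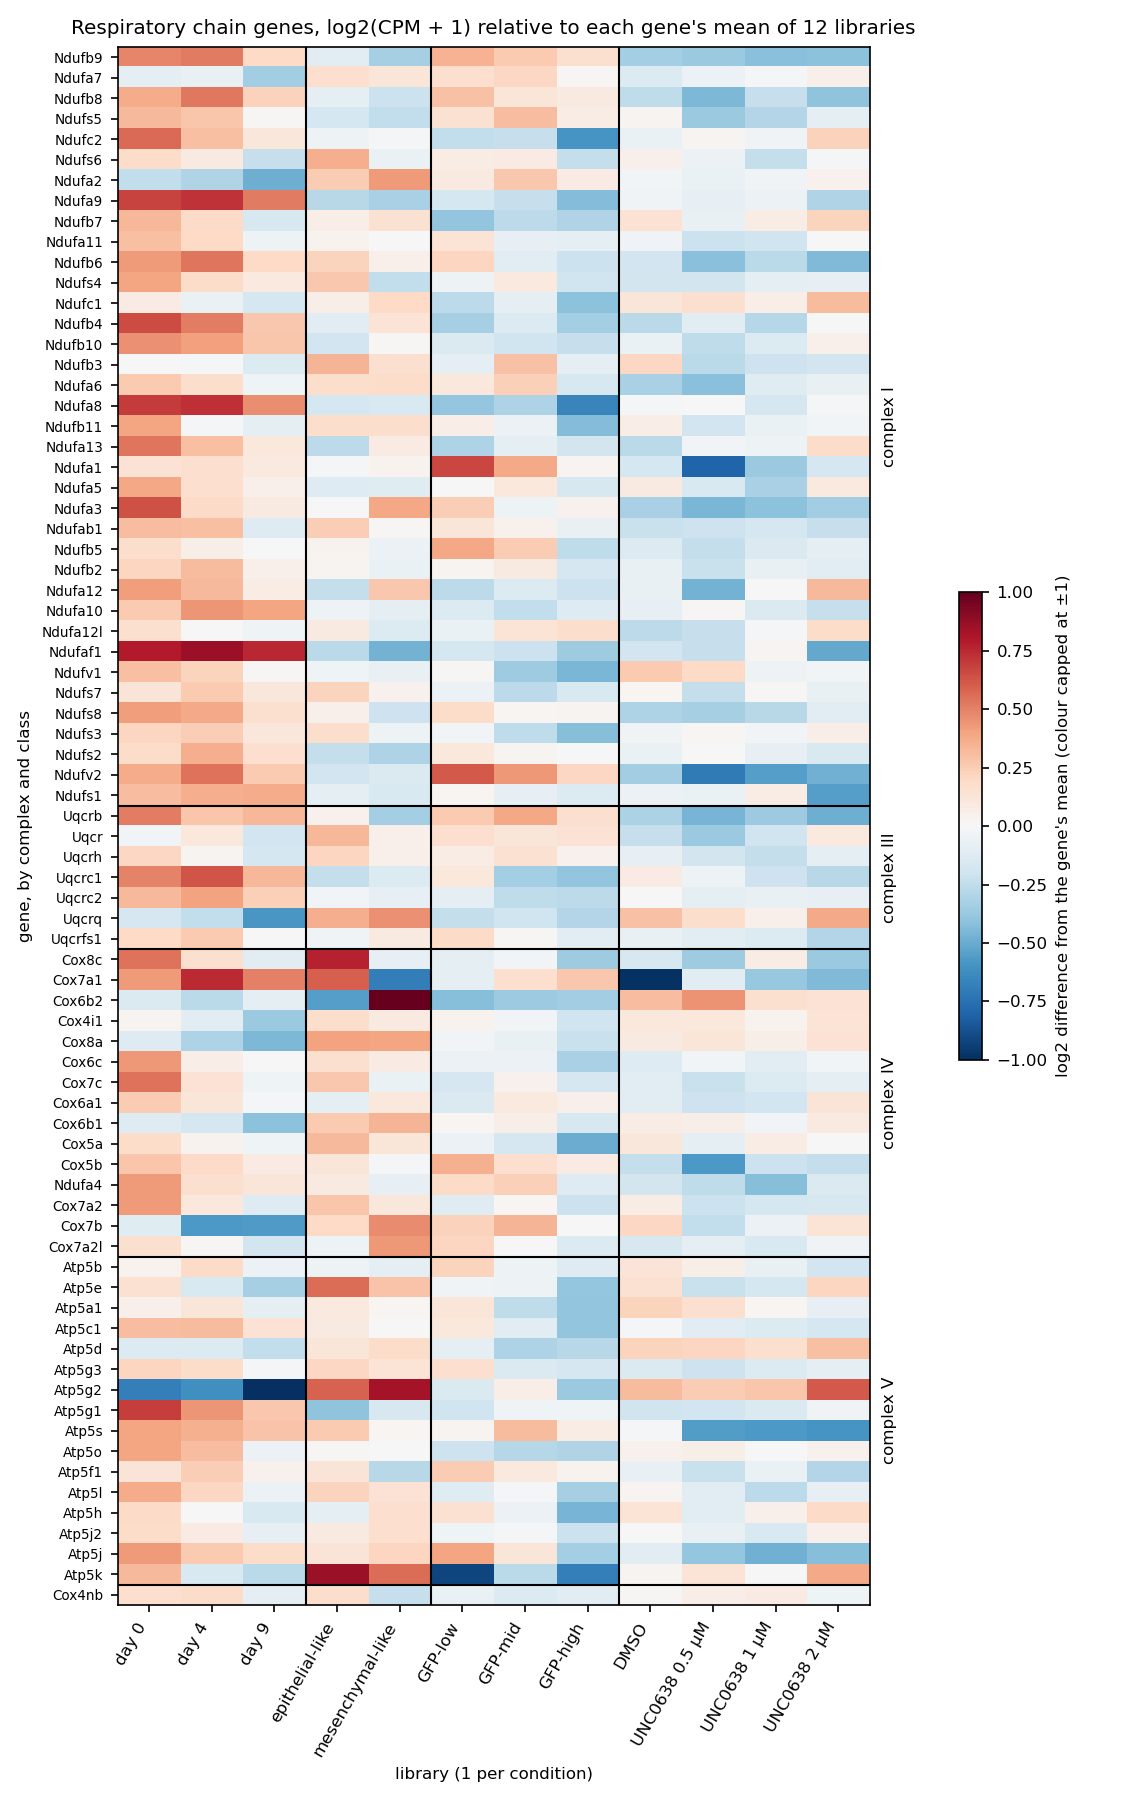
Each row is 1 of the 76 genes that passed the filter, ordered by complex and class, and each column 1 of the 12 libraries; colour gives log2(CPM + 1) relative to the gene's mean, capped at ±1. The left columns (day 0 and day 4) are mostly red (higher) in complex I while Atp5g2 is blue (lower) there, and most cells are pale: the median range is 0.74.

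Feeder removal was examined first. Ratios were small at day 4: 26 of 76 genes were higher and 50 lower than at day 0, with a median log2 ratio of -0.08 against 0.01 over all genes. None of the 76 reached 2-fold, where 2.31% of all genes did. With the deposited TPM the median was -0.03 against 0.04 over all genes, and 33 were higher and 43 lower. In CPM, 10 of the 76 (13.2%) had an interval wholly above 0 and 29 (38.2%) one wholly below, against 18.3% of all genes above and 15.9% below. The mitochondrial ribosomal protein genes had a median of -0.04 with 50 of 75 lower, and the proteasome genes 0.04 with 14 of 39 lower. The complexes differed in the sign of their members. All 11 ubiquitous subunits of complex IV were lower (log2 ratios -0.45 to -0.05), and with the other forms 14 of 15 were lower, 10 of them with an interval wholly below 0. Of the 7 core subunits of complex I, 5 were higher, with a median of 0.06 against -0.07 for the accessory subunits. Length moved with the day 4 ratios too: the Spearman correlation was 0.38 across the 76 genes and 0.08 across all genes. The 34 members under 600 bases had a median of -0.14 and the 18 over 1200 bases 0.06, and 160 of 184 other short genes (mean of 10 CPM or more) were lower (median -0.24). The median lengths were 1472 bases for the core subunits, 555 for the accessory subunits and 545 for the ubiquitous subunits of complex IV, and the part of length was not tested.

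At day 9 the genes of all 4 complexes were lower. In all, 4 of 76 genes were higher and 72 lower than at day 0, and 61 had an interval wholly below 0 against 1 above it; over all genes 20.3% lay below and 20.3% above. The median log2 ratio was -0.26 against 0.01 for all genes, and none of the 76 reached 2-fold, where 2.59% of all genes did. With the deposited TPM the median was -0.12 while that of all genes moved to 0.13, so the gap between them was -0.26 in TPM and -0.27 in CPM. In TPM 16 were higher and 60 lower. By complex the medians in CPM were -0.25 for I, -0.17 for III, -0.32 for IV and -0.26 for V, with 35 of 37, 7 of 7, 13 of 15 and 16 of 16 genes lower on that scale. The levels went down in the order of day 0, day 4 and day 9 for 47 of the 76 genes (61.8%), against 19.1% of all genes.

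The lowest ratios at day 9 were in complexes IV and V. The testis form Cox8c had 10.98, 8.19 and 6.57 CPM at days 0, 4 and 9, a log2 ratio of -0.66 at day 9 (interval -1.20 to -0.28). Atp5k, in the membrane part of ATP synthase, had 26.7, 18.8 and 17.3 CPM (-0.60, interval -0.91 to -0.34). Cox7c, a small subunit of cytochrome c oxidase, had 309, 235 and 206 CPM (-0.59, interval -0.67 to -0.51). It had reads shared with similar sequences in 10 of the 12 libraries, which the interval does not cover. In all 3 the day 0 library was highest and day 9 lowest, with day 4 nearer to day 9.

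The 4 genes with higher levels at day 9 in CPM were Ndufa10 and Ndufs1 of complex I and Cox7a1 and Cox6b2 of complex IV. Ndufa10, an accessory subunit, had 113, 129 and 124 CPM (0.13, interval 0.01 to 0.25) and was the 1 gene whose interval lay above 0. The core subunit Ndufs1 had 242, 253 and 253 CPM (0.06, interval -0.02 to 0.15). Cox7a1 had 3.79, 4.98 and 4.06 CPM (0.08, interval -0.59 to 0.81), on 29, 59 and 50 counts. The intervals of Ndufs1 and Cox7a1 include 0. In CPM the most abundant members went with the majority: Cox4i1 had 1037, 946 and 787 CPM (-0.40), Ndufb9 had 591, 605 and 484 CPM (-0.29), Uqcrb had 200.4, 171 and 177 CPM (-0.17) and Atp5b had 1982, 2212 and 1855 CPM (-0.10). With the deposited TPM Cox4i1, Ndufb9 and Uqcrb were lower too, but Atp5b was higher at day 9 (1895 TPM) than at day 0 (1839 TPM).

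Transcript length moved with these ratios. Across the 76 genes the Spearman correlation of length with the day 9 ratio was 0.35, and across all 14301 genes it was 0.34; genes share the 2 libraries, and these values are descriptions. The 34 respiratory chain genes under 600 bases had a median of -0.31 and the 18 over 1200 bases -0.13. The 184 other genes under 600 bases with a mean of at least 10 CPM had a median of -0.38, with 173 of 184 lower. Short transcripts outside the respiratory chain thus had a median ratio at day 9 no higher than those within it. The mitochondrial ribosomal protein genes had a median of -0.21 with 73 of 75 lower, and the proteasome genes -0.12 with 33 of 39 lower. The part of length in the lower levels was not tested.

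**Figure D4:**
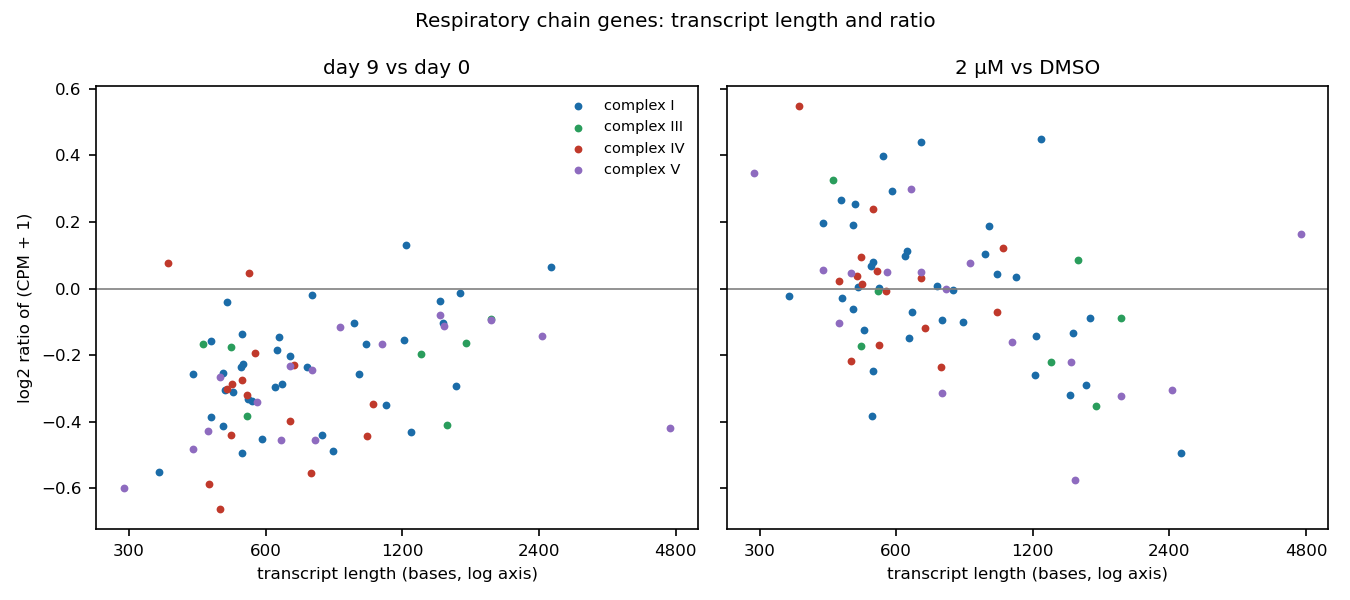
Points are the genes of complexes I, III, IV and V that passed the filter, coloured by complex, with transcript length in bases on a log axis and the log2 ratio of CPM + 1 for day 9 against day 0 (left) and for 2 µM UNC0638 against DMSO (right). At day 9 most points lie below 0 and ratios tend to be lower at short lengths (Spearman 0.35), while at 2 µM they tend to be lower at long lengths (Spearman -0.40).

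Matrigel density was examined next, and the respiratory chain genes lay close to the median of all genes. The median log2 ratio of the mesenchymal-like against the epithelial-like culture was -0.06, against -0.04 for all genes, and 28 of 76 genes were higher and 48 lower. Scaled by library totals, 18 were higher and 58 lower, with the median of all genes at -0.12. Intervals lay above 0 for 10 genes (13.2%) and below 0 for 20 (26.3%), against 21.5% of all genes above and 20.6% below. The mitochondrial ribosomal protein genes had a median of -0.16 and the proteasome genes -0.05. Of the 76 genes 1 was at least 2-fold higher and 1 at least 2-fold lower, both restricted isoforms of complex IV, where 12.7% of all genes were called in either direction. The testis form Cox6b2 had 1.63 and 7.49 CPM from the epithelial-like to the mesenchymal-like culture, on 7 and 31 counts, a log2 ratio of 1.69 (interval 0.99 to 3.63). The muscle form Cox7a1 had 4.41 and 1.21 CPM, on 19 and 5 counts, a log2 ratio of -1.29 (interval -3.64 to -0.40). Both rest on few reads, and neither reached 2-fold with a pseudocount of 5 in place of 1. Cox8c had 13 and 6.77 CPM (-0.85, interval -1.65 to -0.26), on 56 and 28 counts. The 2 testis forms thus had ratios of opposite sign.

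Among the ubiquitous members the higher ratios were moderate. Ndufa12, an accessory subunit of complex I, had 32.3 and 46.4 CPM (0.51, interval 0.20 to 0.85). Cox7a2l, a factor that links complexes III and IV into supercomplexes, had 108 and 152 CPM (0.48, interval 0.31 to 0.66), with reads shared with similar sequences in all 12 libraries. Ndufa3 had 24.1 and 31.9 CPM (0.39, interval 0.02 to 0.79).

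Lower ratios of the same size were found in complex I too. Ndufs4, an accessory subunit, had 116 and 81.0 CPM (-0.51, interval -0.72 to -0.31). Ndufs6, also an accessory subunit, had 103 and 76.6 CPM (-0.43, interval -0.64 to -0.22). The complex medians were close together, at -0.04 for I, -0.05 for III, -0.09 for IV and -0.06 for V. The summed fibroblast markers were 124 and 4571 TPM in these libraries, and 14 of 15 fibroblast markers were at least 2-fold higher in the mesenchymal-like culture. Their part in the single ratios was not tested. Glycolysis genes, an alternative source of ATP, had a median of 0.73 in the same comparison, with 12 of 14 higher and 2 at least 2-fold.

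The sorted fractions compared cells by the level of the Pou5f1 reporter. In GFP-mid against GFP-low 36 of 76 genes were higher and 40 lower, with a median of -0.04 against 0.00 for all genes. None of the 76 reached 2-fold, where 4.13% of all genes did. Intervals lay wholly above 0 for 14 genes (18.4%) and below 0 for 29 (38.2%), against 22.2% of all genes above and 25.3% below. The median took the other sign with library totals in place of scaled counts (0.01). The classes differed in sign. All 7 core subunits of complex I were lower (median -0.18) and so were all 5 subunits of the F1 head (-0.22), while 16 of 28 accessory subunits of complex I and 7 of 11 ubiquitous subunits of complex IV were higher. The core subunits have a median length of 1472 bases and the accessory subunits 555, and the Spearman correlation of length with the ratio was -0.44 across the 76 genes against 0.04 across all genes. Class and length cannot be told apart here.

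In GFP-high against GFP-low most members were lower. The median was -0.19 against -0.01 for all genes, 12 of 76 genes were higher and 64 lower, and 46 intervals (60.5%) lay below 0 against 4 (5.26%) above it. The shares were 26.4% of all genes above and 28.8% below. None of the 76 reached 2-fold, where 9.66% of all genes did. With the deposited TPM the median was -0.04 and that of all genes 0.11, a gap of -0.15 against -0.18 in CPM. In TPM 27 were higher and 49 lower, and with library totals 20 were higher and 56 lower. In CPM all 7 genes of complex III were lower (median -0.10), 32 of 37 of complex I (-0.17), 11 of 15 of complex IV (-0.23) and 13 of 16 of complex V (-0.22). For complex III this depends on the scaling: its sum had a log2 ratio of -0.234 in CPM and 0.0178 in TPM. In TPM, Uqcr (771 to 847) and Uqcrb (809 to 838) were among the higher genes, while Uqcrc1, Uqcrc2 and Uqcrfs1 were lower. The level went down in the order low, mid, high for 33 of 76 genes (43.4%), against 26.0% of all genes. It went up in that order for 4 (5.26%), against 25.2% of all genes.

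Other gene groups and short transcripts were also lower in GFP-high. The proteasome genes had a median of -0.23 with 34 of 39 lower and 66.7% of their intervals wholly below 0. The glycolysis genes had -0.47 with 11 of 14 lower, and the mitochondrial ribosomal protein genes -0.12 with 51 of 75 lower. The 34 members under 600 bases and the 18 over 1200 bases both had a median of -0.17, with 27 and 14 lower. The 184 other short genes had a median of -0.27, with 142 lower. The Spearman correlation of length with the ratio was -0.18 across the 76 genes and 0.13 across all genes, and the part of length was not tested.

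The lowest ratio was that of Atp5j, coupling factor 6 in the stalk of ATP synthase, which had 141, 116 and 84.1 CPM in GFP-low, GFP-mid and GFP-high (-0.73, interval -0.87 to -0.61). Ndufb5 had 119, 108 and 76.0 CPM (-0.64, interval -0.79 to -0.50) and Ndufa1 71.5, 58.6 and 45.7 CPM (-0.63, interval -0.83 to -0.46), both accessory subunits of complex I. In each of these the GFP-mid library lay between the others. The catalytic head of ATP synthase went the same way, with 1226, 947 and 858 CPM for Atp5a1 (-0.52) and 2265, 1868 and 1773 CPM for Atp5b (-0.35). Atp5j had reads shared with similar sequences in all 12 libraries.

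Few members were higher in GFP-high. The assembly factor Ndufa12l (RefSeq Ndufaf2) had 35.8, 41.5 and 42.5 CPM (0.24, interval 0.03 to 0.47), Atp5k 10.7, 17.3 and 12.8 CPM (0.23, interval -0.16 to 0.67) and Cox6a1 228, 271 and 261 CPM (0.20, interval 0.11 to 0.28). In CPM, Atp5k and Cox6a1 were highest in GFP-mid, not in GFP-high. With the deposited TPM this held for Atp5k, but Cox6a1 was highest in GFP-high (1007, 1226 and 1283 TPM in GFP-low, GFP-mid and GFP-high). Succinate dehydrogenase, the complex II that the prefixes do not cover, was also lower in GFP-high. The ratios were -0.27 for Sdha, -0.17 for Sdhb, -0.36 for Sdhc and -0.73 for Sdhd. The summed myeloid markers of 404, 307 and 52.5 TPM were lowest in GFP-high too, where all 9 were at least 2-fold lower, and 9 of 15 fibroblast markers were at least 2-fold higher. Their part in these ratios was not tested. The GFP gate used the reporter of Pou5f1 and none of these genes.

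UNC0638 was examined by dose against DMSO. The median log2 ratios were -0.09 at 0.5 µM, -0.06 at 1 µM and 0.00054 at 2 µM, against 0.00 for all genes at each dose, so the median was nearest to that of all genes at the highest dose. At 0.5 µM 20 of 76 genes were higher and 56 lower, at 1 µM 23 and 53, and at 2 µM 38 and 38. The even split at 2 µM depends on the scaling: with the deposited TPM 23 were higher and 53 lower, with a median of -0.07 against -0.05 for all genes. None of the 76 reached 2-fold at any dose, where 3.70%, 6.66% and 7.05% of all genes did at 0.5, 1 and 2 µM. Intervals lay below 0 for 22, 20 and 14 genes and above 0 for 1, 2 and 10. Below 0 these are 28.9%, 26.3% and 18.4% of the 76, against 12.4%, 16.8% and 19.4% of all genes, so the share at 2 µM is near the background. Above 0 the shares of all genes were 12.4%, 15.3% and 19.3%. The 3 ratios share the DMSO library. Levels went down at every step from DMSO to 2 µM for 6 of 76 genes (7.89%), against 7.496% of all genes, and up at every step for 3 (3.95%), against 7.01%; the share going down is near the background.

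Uqcrc1, core protein 1 of complex III, was 1 of these 6. It had 428, 392.1, 351 and 334 CPM with DMSO and 0.5, 1 and 2 µM (-0.35 at 2 µM, interval -0.45 to -0.26). Atp5a1 and Atp5b, the alternating subunits of the F1 head, were others, with 1317, 1257, 1145 and 1065 CPM (-0.31) and 2119.8, 2019, 1840.2 and 1696 CPM (-0.32). In these 3 genes each dose lay below the one before it. The other 3 were Atp5c1, Uqcrfs1 and Atp5s, the last at only 6.37, 4.06, 4.00 and 3.95 CPM.

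Other members differed in their pattern over the doses. Ndufs1 had 188, 187, 206 and 133 CPM (-0.49 at 2 µM, interval -0.65 to -0.35), low in the 2 µM library alone. Ndufb3 had 67.2, 48.1, 50.3 and 51.3 CPM (-0.38, interval -0.64 to -0.14), lower at each dose by a similar amount. Among the higher members, Ndufa13 had 124, 146, 144 and 169 CPM (0.45, interval 0.30 to 0.61). Ndufa12l had 31.2, 31.9, 37.2 and 42.7 CPM (0.44, interval 0.14 to 0.77), higher at every step. Ndufa12 had 36.4, 27.2, 38.1 and 48.3 CPM (0.40, interval 0.11 to 0.70) and was lowest at 0.5 µM and highest at 2 µM, so it followed no order of dose.

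At 2 µM length went with the members' ratios in the direction opposite to day 9. The Spearman correlation across the 76 genes was 0.07 at 0.5 µM, where the short members had a median of -0.11 and the long ones -0.05. At 1 µM it was -0.02, with medians of -0.06 and -0.06. At 2 µM the Spearman correlation of length with the ratio was -0.40 across the 76 genes and -0.10 across all genes, and 15 of the 18 genes over 1200 bases were lower against 12 of the 34 under 600 bases. The 184 other short genes had a median of 0.13, and 52 of them were lower. Fibroblast markers summed to 1615, 590.4, 227 and 332 TPM in the 4 libraries, highest with DMSO. Its part in the ratios, and that of length, was not tested.

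**Figure D5:**
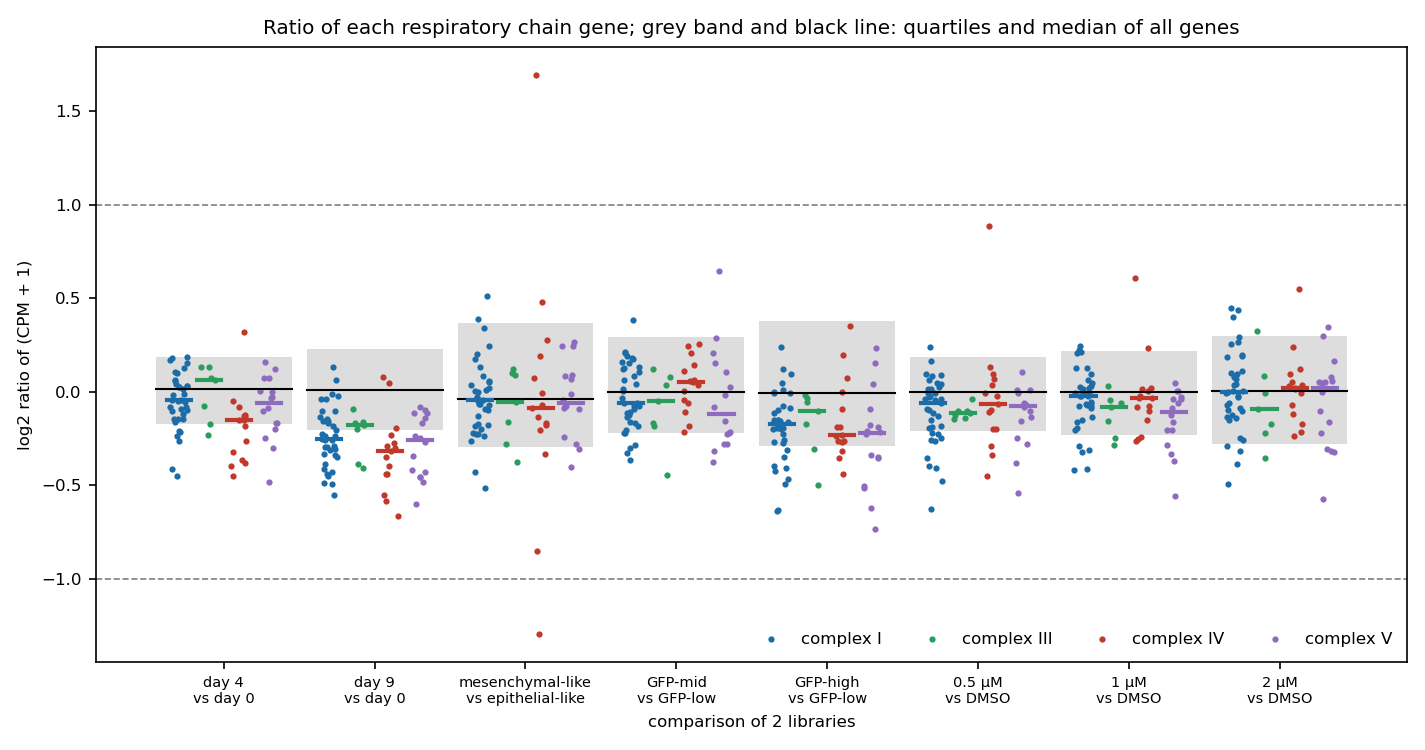
Each point is the log2 ratio of CPM + 1 of 1 gene of complexes I, III, IV or V in 1 of the 8 comparisons of 2 libraries, coloured by complex with a coloured bar at the complex median; the grey band and black line are the quartiles and median of all 14301 genes, and dashed lines mark 2-fold. Only Cox6b2 (1.69) and Cox7a1 (-1.29), in the density experiment, lie beyond 2-fold, and at day 9 all 4 complex medians lie below the median of all genes.

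The genes around the respiratory chain were taken from fixed lists. The 6 genes of complex II and the electron carriers Cyc1 and Cycs had medians of -0.16 at day 9, -0.12 in the density experiment, -0.24 in GFP-high and -0.09 at 2 µM. The 15 assembly factors found, such as Surf1 for complex IV and Bcs1l for complex III, had -0.04, -0.08, -0.31 and 0.18. The 13 enzymes of the TCA cycle, which supply NADH and succinate, had -0.07, 0.03, -0.28 and -0.22, with none at least 2-fold in these comparisons. At 2 µM 11 of 13 TCA cycle genes and 12 of 14 glycolysis genes were lower (medians -0.22 and -0.21). The respiratory chain genes were evenly split there in CPM, but not with the deposited TPM.

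Regulators of mitochondrial genes lay below most subunits in level. Of the 12 listed, 11 passed the filter, and their medians were -0.05 at day 9, -0.11 in the density experiment, 0.01 in GFP-high and -0.23 at 2 µM. Nrf1 had 28.0 to 41.5 TPM over the 12 libraries, Gabpa 25.9 to 45.4 TPM and Tfam, which packages mitochondrial DNA, 27.7 to 38.5 TPM. The coactivator Ppargc1a had at most 0.630 TPM and was listed at 0 in both density libraries. Atpif1, the inhibitor of ATP synthase, had 604 to 819 TPM and a day 9 ratio of -0.48, against a median of -0.26 for the genes of complex V. That comparison was not matched for transcript length, with which day 9 ratios moved. Cycs, cytochrome c, had 4.62 to 22.0 TPM, below its partner Cyc1 of complex III at 378 to 604 TPM.

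A comparison was also made between experiments. The DMSO library and the day 0 library are both feeder cultures without inhibitor, and 62 of 76 genes were lower with DMSO, with a median of -0.32. Of the 76, 1 was at least 2-fold lower (Cox7a1, -1.42, on 29 and 4 counts) and none at least 2-fold higher, where 19.4% of all genes were called. That median lies farther from 0 than the members' median in any of the 8 comparisons within an experiment. The proteasome genes had a median of -0.36 with 33 of 39 lower, and the mitochondrial ribosomal protein genes -0.24 with 56 of 75 lower. Complex I was lowest, at -0.36, and Ndufaf1 (-0.98) and Ndufa3 (-0.96) stood just inside the 2-fold limit, as did Atp5g2 on the higher side (1.00 after rounding). Uqcrq was the 1 gene of complex III that was higher with DMSO (0.46, interval 0.32 to 0.61). All 15 fibroblast markers were at least 2-fold higher with DMSO, and their part was not tested.

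The 3 feeder-removal libraries were also set beside the other 9. In 12 of 76 genes (15.8%) all 3 lay above the other 9, and in 2 (2.63%) all 3 lay below, against 14.5% and 13.3% of all genes, so the share above is near the background. Among the proteasome genes 26 of 39 (66.7%) lay above. The 3 genes above with the widest gap in mean and the 2 below are given as a description. Ndufaf1 had 91.8 to 98.5 CPM in the 3 libraries of the feeder-removal series and 37.6 to 55.1 CPM in the other 9. Ndufa9, an accessory subunit, had 345 to 395 CPM in the 3 libraries of the feeder-removal series and 178 to 233 CPM in the other 9, and Ndufa8 had 113 to 136 CPM in the 3 libraries of the feeder-removal series and 51.1 to 81.1 CPM in the other 9. On the other side, Atp5g2 had 50.8 to 73.7 CPM in the 3 libraries of the feeder-removal series and 87.5 to 202 CPM in the other 9, and Ndufa2 63.9 to 75.4 CPM in the 3 libraries of the feeder-removal series and 85.9 to 121 CPM in the other 9. Each experiment held its own groups, so what separates experiments technically and what separates their cells cannot be told apart.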

How the data were processed

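RNA was measured in 12 libraries of cultured GSCs, 1 per group; 4 ATAC libraries were not analysed here. Per the labels' protocols, libraries were made by a modified Smart-seq2 procedure. Trim Galore, RSEM and build mm10 are named in the submitters' processing notes; the aligner is not given in the sources used here. The authors deposited an expected count per gene, not normalized, and a TPM scaled to gene length and library, per the file headers. Expected counts were rounded and scaled to CPM by TMM (edgeR 4.0.16 under R 4.3.3, factors 0.911 to 1.07); with 1 library a group no count test was run. The filter kept rows whose mean CPM reached 1 across the RNA libraries. Ratios are log2 of CPM + 1, which understates changes of low genes, and 2-fold is 1 on that scale; each 95% interval splits the reads of a gene between 2 libraries by Clopper-Pearson, without the pseudocount. Only the ratio, the 2-fold call and the interval were tried on simulated counts, which had no amplification noise and larger changes than most seen here. TMM scaling, the filter and the motif search were not tried in this way. The members and lists were chosen with earlier results of these data known.

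Named with their values were, in each experiment, the 3 highest and 3 lowest members by the last against the first library with at least 50 expected counts in the higher one, the restricted isoforms beside their partners, and the member of each complex with the highest mean TPM; other members named were chosen after their values were seen. Lists were complex II and carriers, assembly factors, biogenesis regulators, TCA cycle, glycolysis, and germ cell, fibroblast, myeloid and Sertoli markers; mitochondrial ribosomal protein and proteasome genes served for comparison. Transcript lengths are those in the deposited tables; start windows are from RefSeq, GRCm38.p6. Alternatives were DESeq2 1.42.0 size factors, total counts, deposited TPM, a pseudocount of 0.1 or 5, dropping the filter or raising it to 10 CPM, structural subunits only and summed CPM. Tables and plots were made in Python 3.11.15 (scipy 1.17.1, pandas 2.3.3, numpy 2.4.6, matplotlib 3.10.9).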

Additional observations from a re-analysis of the deposited data

How the results depend on the processing

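No paired analysis was possible because each RNA group has 1 library. For the 8 medians and 8 counts of genes at least 2-fold changed, 9 of 120 alternative values moved by more than the tolerance. For a median this was the typical (median) half-width of a member's counting interval, 0.114 to 0.177 on the log2 scale, which is wider than most of the medians; for a count it was 1.5 times. Medians thus shifted within it: from -0.0597 to -0.143 with total counts in the density experiment, from -0.0794 to -0.0295 with the deposited TPM at day 4, from -0.188 to -0.110 with total counts in GFP-high and from 0.000535 to -0.0665 with the deposited TPM at 2 µM. In GFP-mid the median went from -0.0400 to 0.00509 with total counts and 0.0000957 with the deposited TPM, a change of sign, and at 2 µM it also turned negative with total counts and with DESeq2 size factors. With the deposited TPM the median was -0.124 at day 9 and -0.0391 in GFP-high; the median of all genes lay at 0.13 and 0.11 there, and at -0.12 with total counts in the density experiment. The cause was not tested. In the density experiment 0 genes were called with a pseudocount of 5 and 0 with a filter at 10 CPM, which removes the low isoforms. With a pseudocount of 0.1, 1 gene was called at 0.5 µM and 1 at 1 µM; with the deposited TPM 1 was called at 0.5 µM; and with no filter, which adds the 4 lowest rows, 2 were called at 1 µM and 2 at 2 µM. Among the summed levels, complex IV in GFP-mid against GFP-low had a log2 ratio of -0.00409 in CPM and 0.0489 in TPM, a change of sign from beyond its counting error. In 5 more sums the TPM ratio lay within counting error of 0 and the sign also differed: 0.0178 in TPM and -0.234 in CPM for complex III in GFP-high, 0.00138 in TPM and -0.149 in CPM for complex III and 0.00270 in TPM and -0.0788 in CPM for complex I in GFP-mid, 0.0106 in TPM and -0.0213 in CPM for complex I at day 4 and -0.0317 in TPM and 0.0269 in CPM for complex IV at 2 µM. In all, 12 of the 32 sums stayed within their counting error. A count of 0 allows up to 0.725 CPM in the mesenchymal-like library, the highest such limit, which bears on the restricted isoforms.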
